A study of Homo sapiens with 6 samples.

Results

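The 10 genes described here act for or against lipid peroxides, the oxidised membrane lipids that accumulate in ferroptosis. They were taken by symbol from a table of counts for 61806 human gene IDs. The 6 protective genes were GPX4, GPX1, AIFM2, CAT, SOD1 and SOD2, and the 4 sensitising genes were ACSL4, LPCAT3, ALOX5 and ALOX5AP. Counts came from RNA of U937, a human monocytic line that the labels list as AML, in a study of myeloid differentiation under ethacrynic acid. One group of 3 libraries was given ethacrynic acid, a thiol-reactive loop diuretic, and the other group of 3 was given the vehicle DMSO. Both groups were the same line, with no genetic change or second agent named. The titles put both at day 3 while the treatment note gives 2 days of exposure, and no dose was stated. The labels do not say that replicates were separate cultures, so a p-value here covers the spread between libraries, and part of that spread may be technical.

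Ferroptosis is an iron-dependent form of cell death in which polyunsaturated fatty acids held in membrane phospholipids become peroxidised. ACSL4 and LPCAT3 place those fatty acids into phospholipids and lipoxygenases can oxidise them, whereas the selenoenzyme GPX4 reduces the lipid peroxides with glutathione and AIFM2, also called FSP1, regenerates radical-trapping quinols. Superoxide dismutases and catalase act upstream, on superoxide and hydrogen peroxide, and myeloid cells are known for lipoxygenase products such as leukotrienes.

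The libraries held between 57516146 and 68128543 counts. All 10 myeloid markers looked up were detected in every library, with a summed level of 1198 to 1421 CPM with DMSO and 1546 to 2110 CPM with ethacrynic acid (counts per 1e6 after TMM scaling between libraries). These ranges did not overlap. DESeq2 passed LYZ (edgeR log2 fold change 1.64, adjusted p = 0.107) and TYROBP (0.77, adjusted p = 0.287) among them, both named after their values were seen. It passed 2.05% of all genes on the higher side, and edgeR passed none of the 10. The median log2 fold change of the 10 was 0.18, with 7 positive and 3 negative, and MPO was lowest at -0.41. The summed level of 5 T cell markers was 6.50 to 13.7 CPM, of 4 B cell markers 5.68 to 9.50 CPM, of 5 erythroid markers 2.21 to 3.55 CPM and of 4 fibroblast markers 1.15 to 2.56 CPM. The defining markers HBB, HBA1, COL1A2 and DCN had no count in any library. Ethacrynic acid replicate 3 stood apart in 4 epithelial markers, which summed to 367 CPM there and to 25.4 to 40.1 CPM in the other 5 libraries. Values of the members and the medians of the gene lists are therefore also given without it where that moves them.

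Promoter sequence is shown for SOD2, which had the largest fold change of the 10, for CAT, whose level moved least among the protective genes, and for the only members whose promoter windows held the antioxidant response element core, ALOX5AP and AIFM2. The windows are those of RefSeq on GRCh38.p14, read on the strand of the gene. Those of SOD2, CAT and ALOX5AP were cut off before the first annotated transcript start within the window. For AIFM2 only the match with its flanks is shown. The SOD2 and AIFM2 stretches lie inside the gene spans given below, so other transcripts of these genes start further upstream. Capitals mark the GC box (GGGCGG) in SOD2 and CAT and the antioxidant response element core (TGACNNNGC) in ALOX5AP and AIFM2, where it lies on the opposite strand.
SOD2 (chr6:159693329-159693491, minus strand): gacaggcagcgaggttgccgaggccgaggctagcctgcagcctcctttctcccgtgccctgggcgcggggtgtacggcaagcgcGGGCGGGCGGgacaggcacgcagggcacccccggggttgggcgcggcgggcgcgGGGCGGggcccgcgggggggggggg
CAT (chr11:34438684-34438924, plus strand): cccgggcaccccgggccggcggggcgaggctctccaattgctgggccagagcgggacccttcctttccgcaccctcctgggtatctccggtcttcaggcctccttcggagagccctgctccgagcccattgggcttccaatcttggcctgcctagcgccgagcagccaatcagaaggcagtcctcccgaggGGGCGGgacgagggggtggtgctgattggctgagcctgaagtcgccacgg
ALOX5AP (chr13:30713235-30713477, plus strand): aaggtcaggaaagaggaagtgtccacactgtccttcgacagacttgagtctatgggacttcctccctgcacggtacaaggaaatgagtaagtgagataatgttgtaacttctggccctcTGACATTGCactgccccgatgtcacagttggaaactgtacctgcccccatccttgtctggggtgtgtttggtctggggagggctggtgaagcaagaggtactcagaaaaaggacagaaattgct
AIFM2 (chr10:70132831-70132855, minus strand): gcacgagtGCTGAGTCAcgccccgc

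RefSeq gave 13 promoter windows for 8 of the members. Over the 250 bases before the start, 1 SOD2 window held 6 GC boxes on the gene strand, overlapping matches counted. Of 35116 windows of all genes, 0.763% held at least 6 on that strand. The part of that window printed here holds 3 of them, and its G and C content was 81.0%. The other SOD2 windows held 0, 1 and 0 GC boxes on the gene strand and 4, 0 and 1 on the opposite strand. The CAT stretch holds 1 GC box at 68.5% G and C, and 42.6% of all windows hold at least 1 on either strand. The antioxidant response element core stood in 10.9% of all windows on either strand, and the ALOX5AP stretch around its match was 50.2% G and C. No member window held TATAAA on either strand, a motif found in 10.7% of all windows. These matches describe the letters in the windows and say nothing of binding.

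Of the 10 members 9 had enough counts to be tested, and none passed an adjusted p under 0.05 in edgeR's quasi-likelihood test, against 0.265% of the 19611 genes tested (0.229% higher and 0.0357% lower). DESeq2 passed 1 of them, SOD2, on the higher side, where it passed 3.13% of all genes (2.05% higher and 1.08% lower). All 9 fold changes were on the positive side, although those of CAT and ACSL4 were close to 0 and turned negative with total count scaling, and that of GPX1 turned negative without ethacrynic acid replicate 1. At an unadjusted p under 0.05, 2 of 9 were higher, against 6.54% of all genes, and in 2 of 9 the ethacrynic acid libraries all lay above the DMSO libraries, against 8.64% of all genes. None lay wholly below, as 8.99% of all genes did. In bulk RNA, a different number of cells of one kind and a different amount of RNA per cell cannot be told apart.

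**Figure D1:**
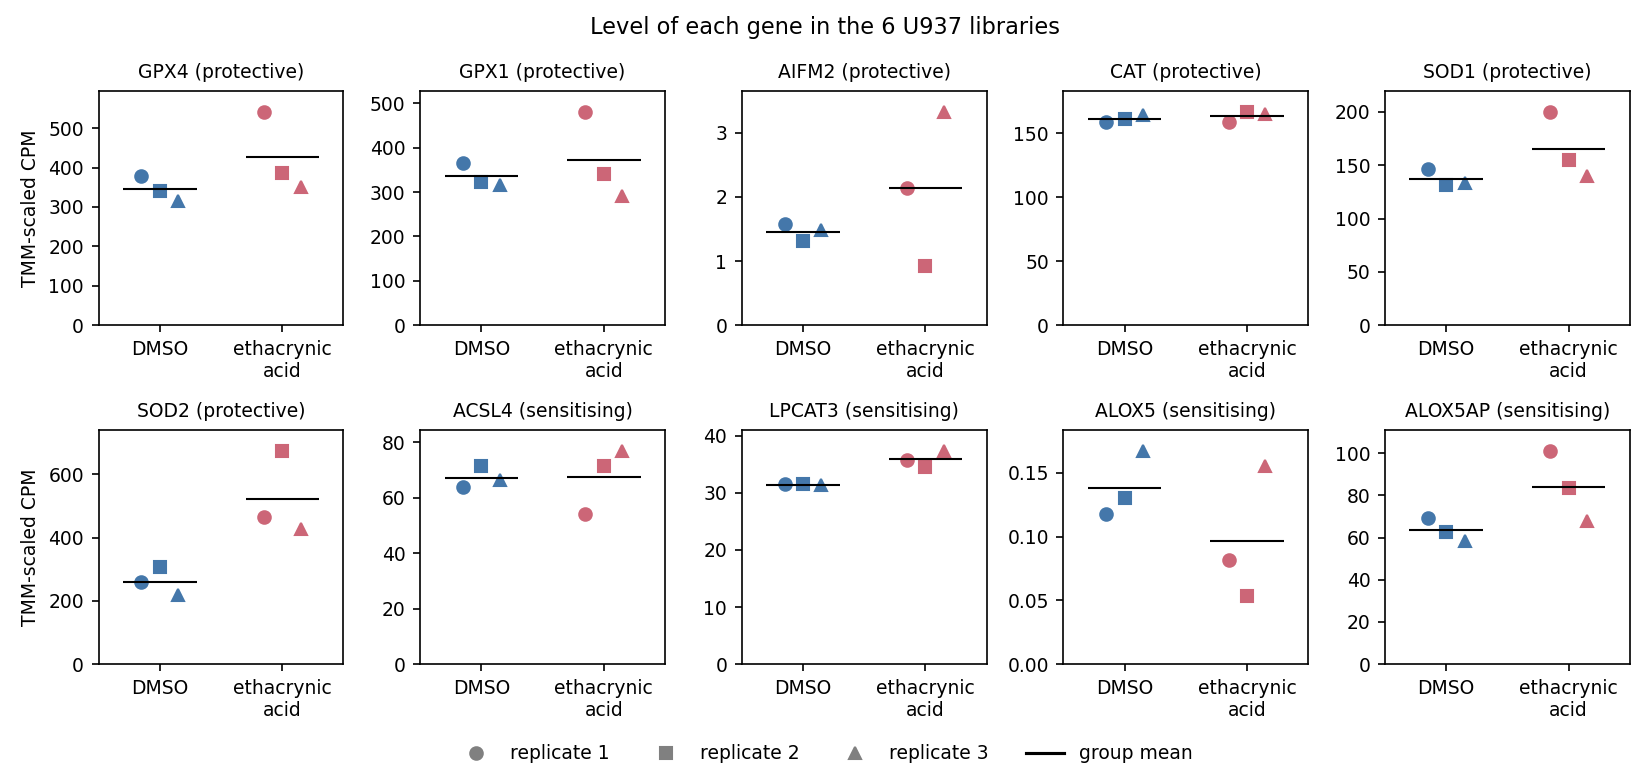
Level of each gene in TMM-scaled CPM (linear axis from 0, one scale per gene) in 3 DMSO and 3 ethacrynic acid libraries, with the replicate as the symbol and the group mean as the bar. The groups are apart in SOD2 and LPCAT3, and ethacrynic acid replicate 1 is the highest library for GPX4, GPX1, SOD1 and ALOX5AP.

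SOD2 encodes the manganese superoxide dismutase of the mitochondrial matrix, which turns superoxide into hydrogen peroxide (ENSG00000112096, chr6:159669057-159745186, minus strand). Its level in the DMSO libraries was 259, 306 and 217 CPM, and in the ethacrynic acid libraries it was 466, 675 and 428 CPM. Every ethacrynic acid library lay above every DMSO library, with replicate 2 highest in both groups. The group means were 261 ± 44.4 and 523 ± 133 CPM (SD, n = 3 each), which is a 2.00-fold difference with a 95% interval of 1.46 to 2.74. On the log2 scale this was 1.00 ± 0.20, and errors of log2 fold changes are SE throughout. The unadjusted p was 0.000955 (rank 142 of the genes tested) and the Benjamini-Hochberg adjusted p from edgeR was 0.132.

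SOD2 passed the threshold in DESeq2 (log2 fold change 1.01, adjusted p = 4.15e-05). Without ethacrynic acid replicate 3, edgeR passed it as well (1.12 ± 0.19, adjusted p = 0.0402), where 0.73% of all genes passed (0.592% higher and 0.138% lower). With the replicate number as a term it passed too (0.99, adjusted p = 0.0061), beside 1.81% of all genes (1.26% higher and 0.551% lower), although nothing in the labels ties libraries of one number together. Its fold change was positive under all 16 alternative settings, between 0.78 and 1.15, with adjusted p from 4.15e-05 to 0.620, the highest without DMSO replicate 3. Within each library SOD2 was also set against the other superoxide dismutase and against catalase. The ratio of SOD2 to SOD1 counts was 1.77, 2.33 and 1.63 with DMSO and 2.33, 4.34 and 3.06 with ethacrynic acid, so the lowest treated library lay just below the highest DMSO library. The ratio of SOD2 to CAT counts was 1.64, 1.90 and 1.33 with DMSO and 2.94, 4.05 and 2.59 with ethacrynic acid, with no overlap. The summed myeloid markers were higher in every treated library as well, although 3 of the 10 had a negative log2 fold change. Their part in the SOD2 difference was not tested.

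SOD2 shares 298 exon bases with WTAP, a subunit of the RNA methylation complex on the opposite strand, and the strand setting of the counting is not given in the sources used here. WTAP was at 121 ± 12.9 CPM with DMSO and 132 ± 12.0 CPM with ethacrynic acid (SD, n = 3 each; log2 fold change 0.12, edgeR adjusted p = 0.722). A second annotated gene ID with the name SOD2 shares 845 exon bases with the one reported and was not analysed here. The SOD2 pseudogene SOD2P1 had 0 counts in every library.

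SOD1, the copper-zinc superoxide dismutase of the cytosol (ENSG00000142168, chr21:31659622-31668931), was measured at 147, 131 and 134 CPM with DMSO and at 200, 155 and 140 CPM with ethacrynic acid. Replicate 1 was the highest library of each group, and ethacrynic acid replicate 3 lay below DMSO replicate 1. The means were 137 ± 8.35 and 165 ± 31.3 CPM (SD, n = 3 each), and the log2 fold change was 0.27 ± 0.14 with a 95% interval of -0.053 to 0.59 (edgeR adjusted p = 0.512). Leaving out treated replicate 1 gave 0.11. Leaving out treated replicate 3 gave 0.37 with a 95% interval of 0.077 to 0.66 (edgeR adjusted p = 0.231). The 3 named SOD1 pseudogenes had 0 counts in every library.

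Catalase, the peroxisomal enzyme encoded by CAT that splits hydrogen peroxide (ENSG00000121691, chr11:34438925-34472062), was at 158, 161 and 164 CPM with DMSO and at 158, 167 and 165 CPM with ethacrynic acid. The groups overlapped and their means were 161 ± 2.80 and 163 ± 4.41 CPM (SD, n = 3 each). The log2 fold change was 0.020 ± 0.078 (edgeR adjusted p = 0.946), and as a ratio its 95% interval ran from 0.895 to 1.15.

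GPX4, the glutathione peroxidase that reduces phospholipid hydroperoxides inside membranes (ENSG00000167468, chr19:1103926-1106791), was at 379, 339 and 315 CPM with DMSO. The ethacrynic acid libraries were at 541, 385 and 351 CPM. Replicate 1 stood well above the other 2 treated libraries, and replicate 3 lay within the DMSO range. The means were 344 ± 32.1 and 426 ± 102 CPM (SD, n = 3 each), and the log2 fold change was 0.31 ± 0.17 with a 95% interval of -0.082 to 0.69 (edgeR adjusted p = 0.527). Without ethacrynic acid replicate 1 it was 0.10 ± 0.10. Without replicate 3 it was 0.42 ± 0.15 with a 95% interval of 0.075 to 0.76 (edgeR adjusted p = 0.243).

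GPX1, the cytosolic glutathione peroxidase of soluble peroxides (ENSG00000233276, chr3:49357171-49358600, minus strand, classed in GENCODE 29 as a polymorphic pseudogene), was at 366, 323 and 316 CPM with DMSO and at 481, 341 and 292 CPM with ethacrynic acid. The treated libraries held both the highest and the lowest value. The means were 335 ± 26.8 and 371 ± 98.0 CPM (SD, n = 3 each), and the log2 fold change was 0.15 ± 0.18 with a 95% interval of -0.26 to 0.56 (edgeR adjusted p = 0.788), and it was -0.075 without ethacrynic acid replicate 1. Without ethacrynic acid replicate 3 GPX1 was at 0.29, with a 95% interval of -0.052 to 0.63. Its pseudogene GPX1P1 had 1053 to 1561 counts per library against 18768 to 29358 for GPX1, so a part of the reads of either may have been assigned to the other. GPX4 and GPX1 moved together across libraries, and the ratio of their counts was 1.04, 1.05 and 0.996 with DMSO and 1.13, 1.13 and 1.20 with ethacrynic acid. This ratio was therefore higher in every treated library than in every DMSO library.

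AIFM2, the quinone oxidoreductase FSP1 that acts beside GPX4 (ENSG00000042286, chr10:70098223-70132934, minus strand), was a low transcript with 107, 91 and 106 counts in the DMSO libraries and 131, 52 and 214 counts in the ethacrynic acid libraries. In CPM these were 1.57, 1.32 and 1.48 with DMSO and 2.15, 0.925 and 3.33 with ethacrynic acid. The treated libraries spanned more than the whole DMSO range in both directions. The means were 1.46 ± 0.129 and 2.13 ± 1.20 CPM (SD, n = 3 each), and the log2 fold change was 0.55 ± 0.43 with a 95% interval of -0.45 to 1.55 (edgeR adjusted p = 0.654). Leaving out treated replicate 3 gave 0.069, and leaving out treated replicate 2 gave 0.91. AIFM2 shares 11 exon bases with MACROH2A2 on the opposite strand. MACROH2A2 had 101 counts in treated replicate 3 and 0 to 22 in the other libraries, and its part in the AIFM2 values was not tested.

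**Figure D2:**
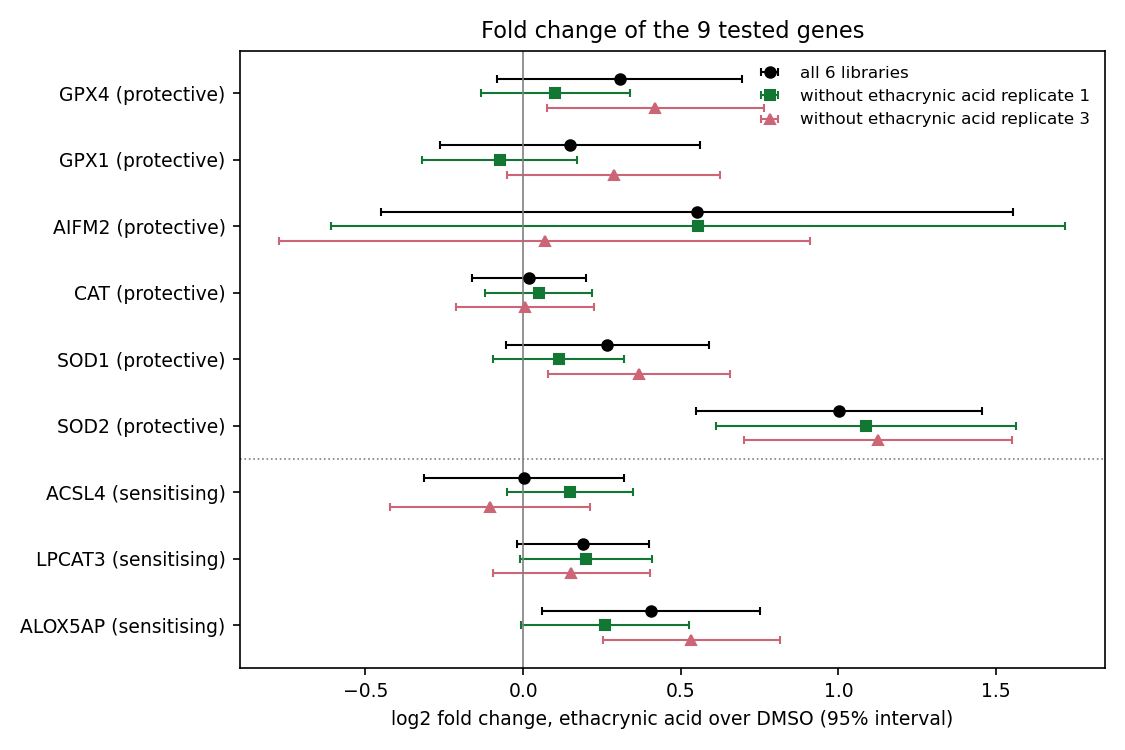
Log2 fold change of ethacrynic acid over DMSO with 95% intervals for the 9 tested genes from edgeR, with all 6 libraries (black circles), without ethacrynic acid replicate 1 (green squares) and without ethacrynic acid replicate 3 (red triangles). The SOD2 intervals lie above 0 in all 3 fits, GPX1 is at 0.15 with all libraries and at -0.075 without replicate 1, and AIFM2 has the widest interval with all libraries, from -0.45 to 1.55.

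Among the sensitising genes, ALOX5AP had the smallest p. It encodes FLAP, the membrane protein that presents arachidonic acid to the lipoxygenase ALOX5 (ENSG00000132965, chr13:30713478-30764426). Its level was 69.2, 62.8 and 58.6 CPM with DMSO and 101, 83.5 and 67.7 CPM with ethacrynic acid. Treated replicates 1 and 2 lay above every DMSO library, and treated replicate 3 lay just under DMSO replicate 1. The means were 63.5 ± 5.37 and 84.1 ± 16.7 CPM (SD, n = 3 each), and the log2 fold change was 0.41 ± 0.15, or 1.32-fold with a 95% interval of 1.04 to 1.68. The unadjusted p was 0.0269 and the edgeR adjusted p was 0.406. Over the alternatives the log2 fold change ran from 0.24 to 0.53, and no adjusted p was under 0.0711. It was 0.26 without treated replicate 1 and 0.53 without treated replicate 3.

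LPCAT3, the acyltransferase that loads arachidonic acid into phospholipids (ENSG00000111684, chr12:6976186-7018510, minus strand), was at 31.5, 31.5 and 31.3 CPM with DMSO and at 35.7, 34.5 and 37.4 CPM with ethacrynic acid. Every treated library lay above every DMSO library by a small margin. The means were 31.5 ± 0.136 and 35.9 ± 1.44 CPM (SD, n = 3 each), and the log2 fold change was 0.19 ± 0.090 with a 95% interval of -0.020 to 0.40 (edgeR adjusted p = 0.486). Without ethacrynic acid replicate 3 it was 0.15. LPCAT3 shares 3100 exon bases with EMG1, a ribosome biogenesis gene on the opposite strand, so its reads cannot be told from those of EMG1 if strand was not used. EMG1 was at 38.9 ± 3.26 and 53.5 ± 9.36 CPM (SD, n = 3 each), and the log2 fold change was 0.46 (edgeR adjusted p = 0.325), and the part of its reads in the LPCAT3 values was not tested.

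ACSL4, the ligase that activates arachidonic acid for phospholipid synthesis (ENSG00000068366, chrX:109624244-109733403, minus strand), was at 63.8, 71.5 and 66.4 CPM with DMSO and at 54.0, 71.4 and 76.8 CPM with ethacrynic acid. The treated libraries lay on both sides of the DMSO range, with replicate 1 lowest. The means were 67.2 ± 3.93 and 67.4 ± 11.9 CPM (SD, n = 3 each), and the log2 fold change was 0.0038 ± 0.14 with a 95% interval of -0.31 to 0.32 (edgeR adjusted p = 0.995). Without ethacrynic acid replicate 3 it was -0.11, and without replicate 1 it was 0.15. KCNE5, a potassium channel subunit gene that shares 78 exon bases with ACSL4 on the same strand, had 21 to 48 counts per library.

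ALOX5, the lipoxygenase that starts leukotriene synthesis (ENSG00000012779, chr10:45374176-45446119), was near the detection limit. It had 8, 9 and 12 counts with DMSO and 5, 3 and 10 counts with ethacrynic acid, too few to be tested in the main fit. In CPM the means were 0.138 ± 0.0257 and 0.0969 ± 0.0526 (SD, n = 3 each), with overlapping groups. A difference in ALOX5 was not detectable at this depth.

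Per kilobase of principal transcript, the DMSO levels put GPX4 first at 375 ± 35.0 CPM per kilobase, followed by GPX1 at 291 ± 23.3 and SOD1 at 142 ± 8.64 (SD, n = 3 each). ALOX5AP at 70.3 ± 5.94 and CAT at 70.0 ± 1.21 CPM per kilobase did not differ beyond their spread. LPCAT3 at 13.9 ± 0.0601 and ACSL4 at 12.6 ± 0.737 CPM per kilobase came next, and AIFM2 at 0.449 ± 0.0398 and ALOX5 at 0.0552 ± 0.0103 were the lowest. On this scale the radical-trapping AIFM2 was thus far below the peroxidase GPX4, and ALOX5 far below its partner ALOX5AP. SOD2 was not placed in this order because its coding transcripts differ widely in length.

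The median log2 fold change was 0.29 over the 6 protective genes and 0.19 over the 3 tested sensitising genes, beside -0.00035 over all genes tested. Over the same genes, the protective median was 0.11 and the sensitising median 0.20 without ethacrynic acid replicate 1, and they were 0.33 and 0.15 without ethacrynic acid replicate 3. With the length trend of each library removed they were 0.12 and 0.14. The order of the roles thus turned with 1 library or with the length trend, and the difference between them was not tested.

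The deviations of 5 members between libraries ran in the direction of a trend with transcript length. When 8246 genes were sorted by length into 5 bins of near-equal size, the shortest bin (207 to 1851 bases) had a median log2 deviation of 0.36 in ethacrynic acid replicate 1 from the other 2 treated libraries. The longest bin (5491 to 101518 bases) deviated by -0.25 in the same library. DMSO replicate 1 showed the same order with 0.12 and -0.12, and the median log2 fold change was 0.11 in the shortest and -0.085 in the longest bin.

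The members with short transcripts were GPX4 (919 bases), GPX1 (1151), SOD1 (966) and ALOX5AP (904). In ethacrynic acid replicate 1 they deviated by 0.56, 0.61, 0.44 and 0.43 on the log2 scale, whereas ACSL4 (5333 bases) deviated by -0.46. CAT (2302 bases) and LPCAT3 (2268 bases) did not follow the trend, with -0.067 and -0.0066 where the median of their length bin was 0.19. When the length trend of each library was removed, the log2 fold changes were 0.13 for GPX4, -0.0029 for GPX1, 0.10 for SOD1 and 0.24 for ALOX5AP. The 95% interval of ALOX5AP still lay above 0, from 0.066 to 0.40 (edgeR adjusted p = 0.214), and those of GPX4, GPX1 and SOD1 still included 0. ACSL4 was then at 0.044, LPCAT3 at 0.14 and SOD2, entered with its longest coding transcript of 14266 bases, at 1.15 (edgeR adjusted p = 0.0542, where 0.814% of all genes passed, 0.7% higher and 0.114% lower). The fold changes of all 4 short genes were thus smaller without the length trend. That of SOD2 was larger, but this depends on the length entered for it, and its coding transcripts differ widely in length. These values describe an association with length across libraries, and its source was not tested.

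**Figure D3:**
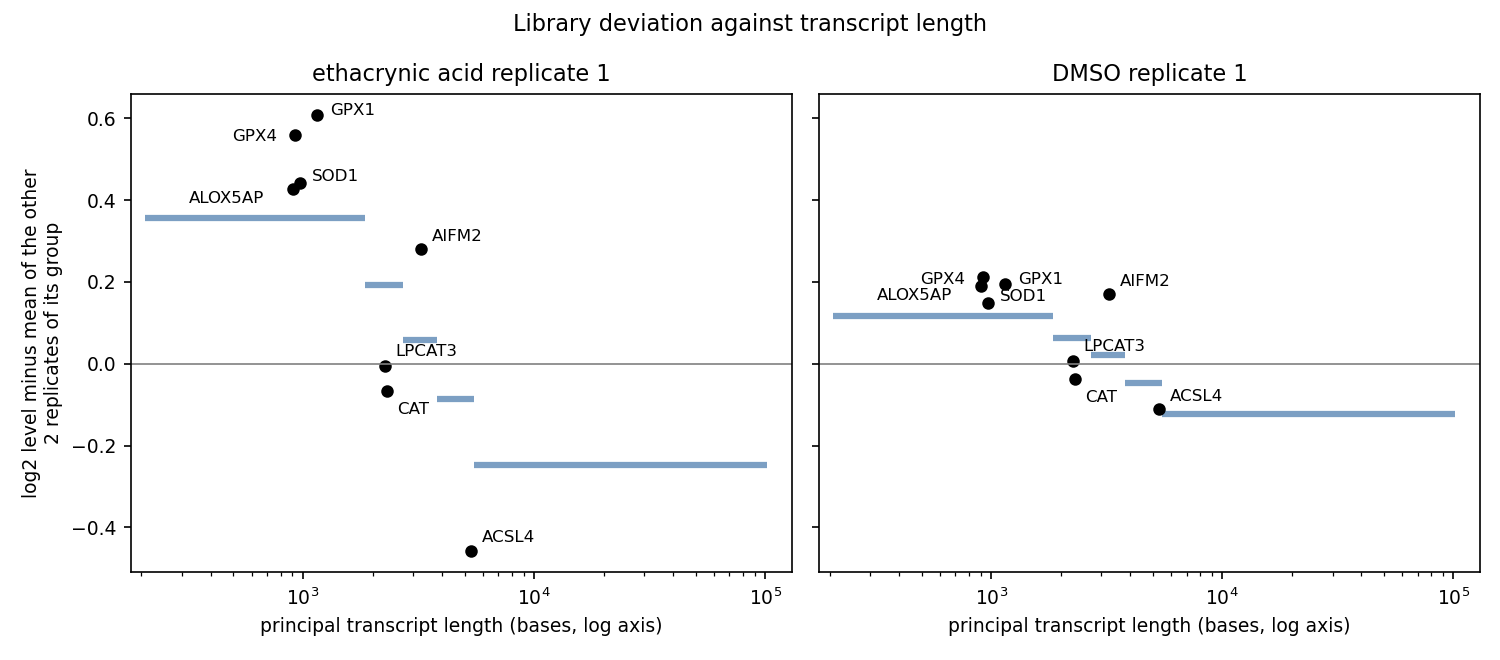
Deviation of ethacrynic acid replicate 1 and of DMSO replicate 1 from the other 2 libraries of their group (log2) against principal transcript length (log axis), for 8 members (points) and as the median of each of 5 length bins of 8246 genes (blue bars). GPX4, GPX1, SOD1 and ALOX5AP lie at 0.43 to 0.61 in ethacrynic acid replicate 1, above the median of 0.36 for their bin, and ACSL4 lies at -0.46.

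The genes most like SOD2 across the 6 libraries, by the root mean square difference of centred log2 CPM, were DYSF (0.115), TRGC1 (0.119) and TLR1 (0.145). DYSF encodes the membrane repair protein dysferlin and was at 17.2 ± 1.89 CPM with DMSO and 33.2 ± 5.56 CPM with ethacrynic acid (SD, n = 3 each; log2 fold change 0.95, edgeR adjusted p = 0.0719). Those most like ALOX5AP were SLC27A5 (0.0246), UQCRQ (0.0248) and EMC3 (0.0254), of which UQCRQ, a subunit of respiratory complex III, was at 19.7 ± 1.26 and 26.2 ± 5.54 CPM. The nearest genes of ALOX5AP were much closer to it than those of SOD2 were to SOD2. All of these genes were picked by their values in the same libraries, so their group differences follow from the choice.

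Other genes of the pathway were read in 7 lists of 77 genes, of which 69 were tested and none passed in edgeR. Their median log2 fold change was 0.080, with 45 positive and 24 negative. At an unadjusted p under 0.05, 12 were higher and 6 lower, against 6.54% and 4.6% of all genes. DESeq2 passed 7 of the 69, which were MGST1, ACSL1, MBOAT7, LRP8, TFRC and SLC7A11 on the higher and CYSLTR1 on the lower side, where 2.05% of all genes passed upward and 1.08% downward. In edgeR with the replicate number as a term, MGST1, ACSL1, MBOAT7, LRP8, TFRC and SLC7A11 passed, beside 1.81% of all genes. With the length trend removed, MBOAT7, LRP8 and SLC7A11 passed in edgeR, beside 0.814% of all genes. Without ethacrynic acid replicate 1, edgeR passed SLC7A11 and 62 of 20549 genes in all. The medians of several lists below depended on 1 treated library.

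Of 10 other enzymes that reduce peroxides 7 were tested, 6 of them with a positive log2 fold change and with a median of 0.38 (0.21 without ethacrynic acid replicate 1 and 0.28 without replicate 3). MGST1, a microsomal glutathione transferase with peroxidase activity that is known to restrain ferroptosis, was at 72.5, 72.9 and 70.3 CPM with DMSO and at 110, 98.7 and 99.9 CPM with ethacrynic acid. The groups were clearly apart, with a log2 fold change of 0.52 ± 0.084 (edgeR adjusted p = 0.0772). PRDX6, a peroxiredoxin that reduces phospholipid hydroperoxides, was at 210 ± 14.4 and 274 ± 47.5 CPM (SD, n = 3 each; log2 fold change 0.38, edgeR adjusted p = 0.384).

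GPX2, a glutathione peroxidase of epithelia named after its values were seen, was at 1.48 to 2.15 CPM in 5 libraries and at 20.6 CPM in ethacrynic acid replicate 3. GPX8, a peroxidase of the endoplasmic reticulum named in the same way, had 0 to 8 counts in those 5 libraries and 53 in replicate 3. The epithelial markers moved with them, as EPCAM was at 2.80 to 5.48 CPM in the 5 libraries and at 40.9 CPM in replicate 3, and KRT8 at 12.7 to 21.7 and at 198 CPM. AIFM2 was at 3.33 CPM in that library too, while CAT was at 165 CPM and within the range of the others. The part of epithelial transcripts in these values was not tested.

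**Figure D4:**
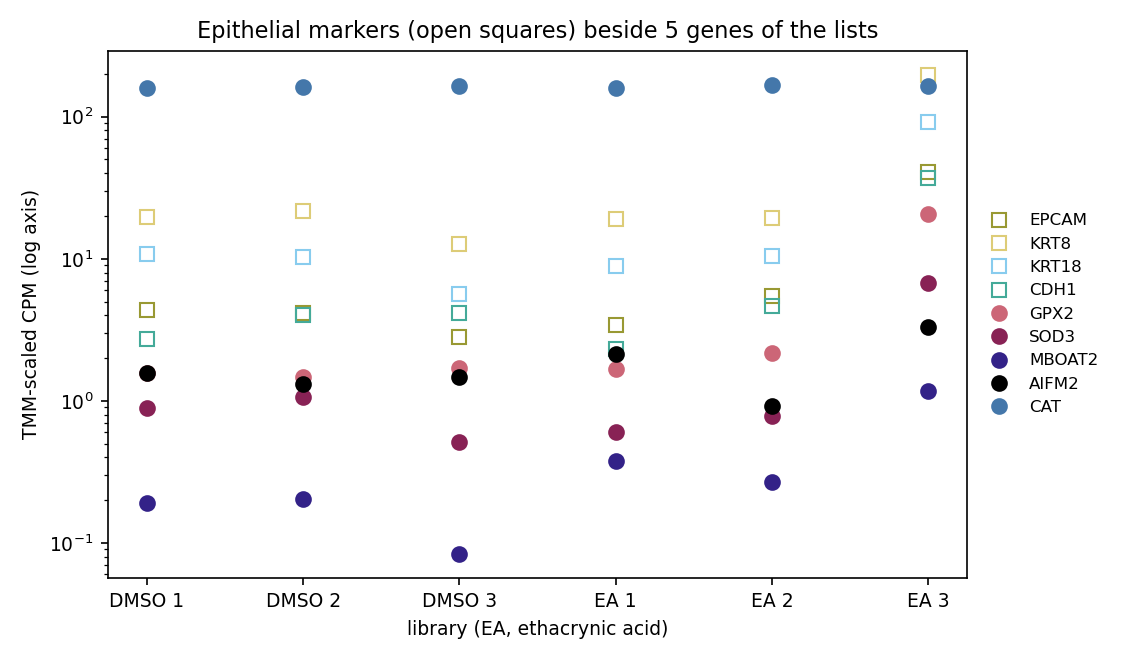
Level in TMM-scaled CPM (log axis) of 4 epithelial markers (open squares) and of GPX2, SOD3, MBOAT2, AIFM2 and CAT (filled circles) in each library (EA, ethacrynic acid). In EA 3 the epithelial markers and GPX2 are far above their level in the other 5 libraries (GPX2 at 20.6 CPM against 1.48 to 2.15 CPM), AIFM2 is at its highest of 3.33 CPM, and CAT stays level.

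The superoxide and peroxide partners (4 tested, all positive, median 0.31, or 0.16 without ethacrynic acid replicate 1) included SOD3, the extracellular superoxide dismutase, at 0.516 to 1.06 CPM in 5 libraries and 6.76 CPM in ethacrynic acid replicate 3. CYB5R1, a reductase reported to generate peroxides in ferroptosis, was at 12.8 ± 2.40 and 16.1 ± 2.34 CPM (SD, n = 3 each; log2 fold change 0.34, edgeR adjusted p = 0.511). In the quinone and tetrahydrobiopterin list (16 tested, 10 positive) the median was 0.066 and turned to -0.014 without ethacrynic acid replicate 3. The smallest p values belonged to a pair of coenzyme Q synthesis genes on the lower side. COQ6 was at 18.3 ± 0.713 and 15.2 ± 0.796 CPM and PDSS2 at 30.8 ± 0.874 and 25.4 ± 2.94 CPM (SD, n = 3 each; edgeR adjusted p = 0.428 and 0.430). SPR, the sepiapterin reductase named after its values were seen, had 0 to 32 counts in 5 libraries and 184 in ethacrynic acid replicate 3.

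In phospholipid remodelling (17 tested, 11 positive) the median was 0.073 and turned to -0.0070 without ethacrynic acid replicate 3. MBOAT7, which places arachidonic acid into phosphatidylinositol, was at 84.0, 82.3 and 69.4 CPM with DMSO and at 135, 123 and 105 CPM with ethacrynic acid. The groups did not overlap, with a log2 fold change of 0.62 ± 0.12 (edgeR adjusted p = 0.139). MBOAT7 passed in edgeR without ethacrynic acid replicate 3, where 0.73% of all genes passed. ACSL1, an acyl-CoA ligase of the same family as ACSL4, was at 111 ± 6.76 and 164 ± 27.7 CPM (SD, n = 3 each; log2 fold change 0.56, edgeR adjusted p = 0.190). MBOAT2, named after its values were seen, had 13, 14 and 6 counts with DMSO and 23, 15 and 75 counts with ethacrynic acid. Its groups did not overlap in CPM, although the counts were low and treated replicate 3 was far the highest (edgeR adjusted p = 0.399).

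The lipoxygenase and leukotriene list had a median of -0.15 (12 tested, 4 positive and 8 negative), beside -0.040 when treated replicate 1 was left out and -0.13 when treated replicate 3 was. CYSLTR1, a receptor of cysteinyl leukotrienes, was at 14.7, 17.6 and 17.3 CPM with DMSO and at 11.8, 12.6 and 10.5 CPM with ethacrynic acid, with no overlap (log2 fold change -0.50 ± 0.13, edgeR adjusted p = 0.251). GGT5, which converts leukotriene C4 to D4, was at 15.6 ± 2.28 and 10.5 ± 1.92 CPM (SD, n = 3 each; log2 fold change -0.57, edgeR adjusted p = 0.344). ALOX12, a lipoxygenase named after its values were seen, was at 4.97 ± 0.481 and 5.72 ± 0.660 CPM (SD, n = 3 each; edgeR adjusted p = 0.704). ALOX15 and ALOX15B, named in the same way, had 0 to 8 and 0 to 29 counts per library.

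In the selenoprotein list (9 tested, 6 positive) the median was 0.073, beside 0.032 without ethacrynic acid replicate 1, 0.14 without replicate 3 and -0.0016 with the length trend removed. LRP8, a receptor that takes up selenoprotein P, was at 104 ± 12.7 and 146 ± 16.7 CPM (SD, n = 3 each; log2 fold change 0.50, edgeR adjusted p = 0.218). PSTK, a kinase of selenocysteine tRNA synthesis, was at 6.56 ± 0.634 and 4.91 ± 0.333 CPM (SD, n = 3 each; log2 fold change -0.42, edgeR adjusted p = 0.433).

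Of 4 transcripts reported to rise in ferroptosis, all were on the positive side, with a median log2 fold change of 0.84 (0.96 without ethacrynic acid replicate 1 and 0.83 without replicate 3). TFRC, the transferrin receptor for iron uptake, was at 76.5, 95.9 and 59.4 CPM with DMSO and at 121, 153 and 111 CPM with ethacrynic acid. Its groups did not overlap, and the log2 fold change was 0.73 ± 0.19 (edgeR adjusted p = 0.233). SLC7A11, the cystine transporter that feeds glutathione synthesis, was at 33.9, 30.6 and 43.9 CPM with DMSO and at 51.8, 77.2 and 80.7 CPM with ethacrynic acid. Every treated library was above every DMSO library here as well (log2 fold change 0.95, edgeR adjusted p = 0.152). PTGS2, named after its values were seen, had 12 to 24 counts with DMSO and 19, 40 and 77 counts with ethacrynic acid, and the groups overlapped. CHAC1, the fourth gene of the list, had a log2 fold change of 0.095 (edgeR adjusted p = 0.846).

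**Figure D5:**
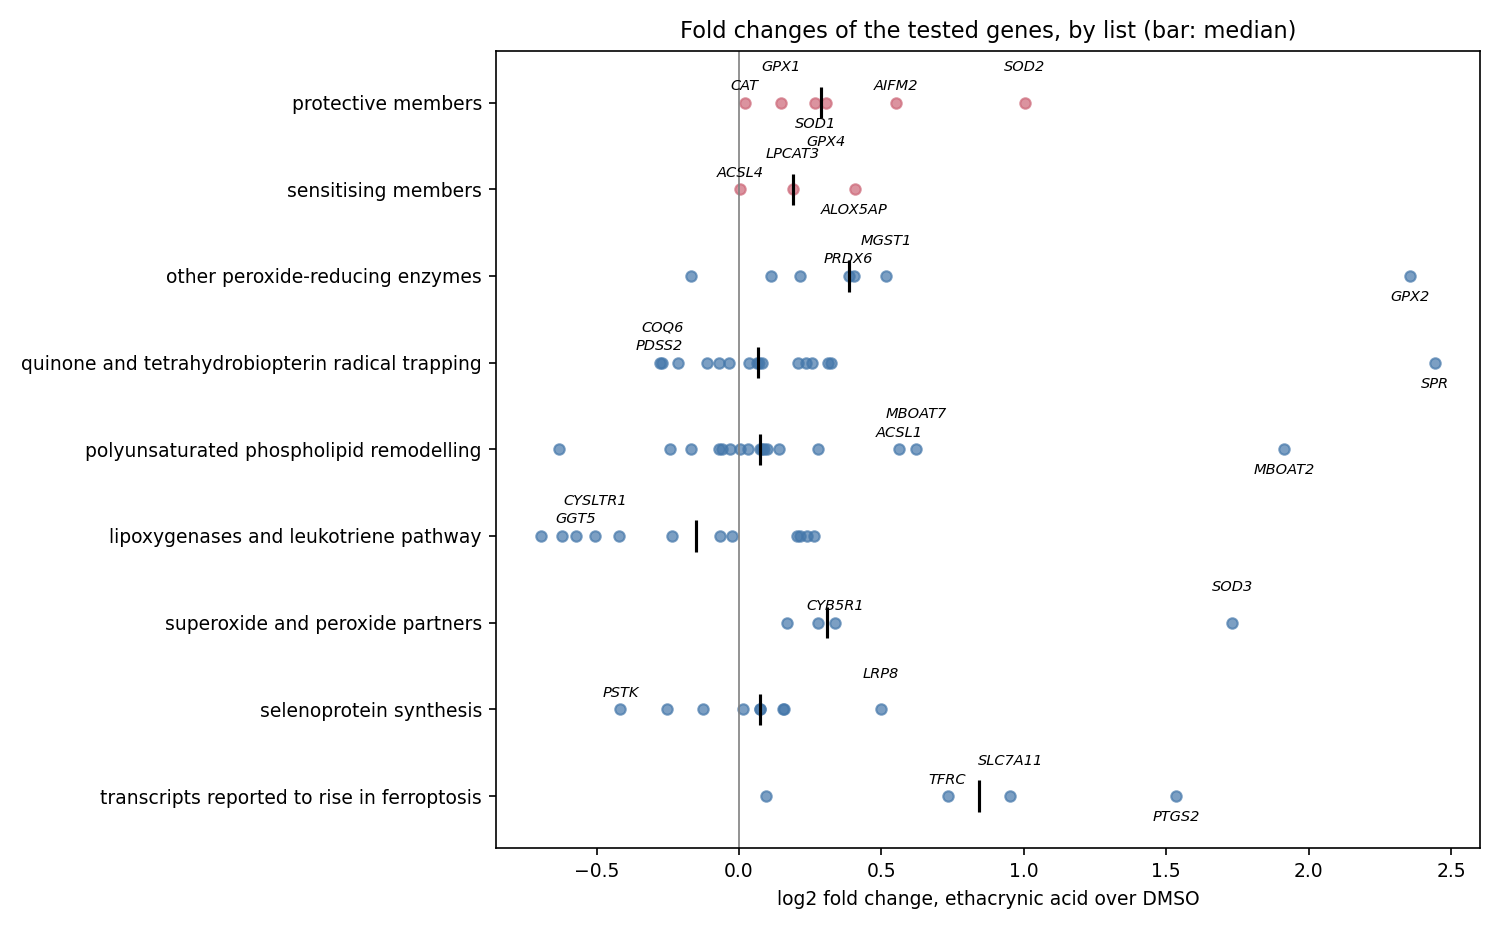
Log2 fold change of ethacrynic acid over DMSO for each tested gene, by list, with the 9 tested members in red and the 7 pathway lists in blue, and the median of each list as a bar. With all 6 libraries the medians run from -0.15 in the lipoxygenase and leukotriene list to 0.84 in the transcripts reported to rise in ferroptosis, and the points beyond 1.7 are GPX2, SPR, MBOAT2 and SOD3.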

How the data were processed

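RNA of 3 DMSO and 3 ethacrynic acid libraries of U937 was sequenced after library construction with a SMARTER kit for mRNA, as the labels' protocols state. The deposited table holds whole-number counts per gene ID, which the authors did not scale between libraries, judged from the values. Per the submitters' processing notes, the build was GRCh38 and the tools included HISAT2, fastp, edgeR and StringTie 1.3.4d, whose roles are not stated. The counting step, its strand setting and its annotation were not given in the sources used. More genes had a count of 4 than of 3 or 5 in every library, so a read pair may be worth more than 1 count and depth overstates precision.

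The members, the gene lists and the tests were chosen with earlier results of these data known. IDs took their symbol from a gene name table (61757 IDs) or from GENCODE 29 alone (47 IDs, SOD2 among them), whose GRCh38 coordinates are given. Genes were filtered with filterByExpr (minimum count 10, minimum total 15) and scaled by TMM. The test was edgeR's quasi-likelihood F-test (version 4.0.16, with limma 3.58.1 under R 4.3.3) on group alone, and Benjamini-Hochberg adjustment ran over all 19611 genes. An SE is the log2 fold change over the root of F, and intervals use the test's degrees of freedom. The coefficient of variation between libraries was 29.1%. The test was checked on simulated counts.

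CPM values divide the counts as deposited by TMM-scaled library sizes. Length is that of the principal transcript in GENCODE 29, and the length trend was a smooth curve per library over genes above 4 log2 CPM, entered as an offset. Named genes were all members, the 2 genes of each list with the smallest p where none passed, and the 3 nearest genes of SOD2 and ALOX5AP. Alternatives were RLE or total count scaling, no filter, 5 CPM in 3 libraries, DESeq2 1.42.0, a replicate block, leaving out each library, counts divided by 4, and members summed with their pseudogenes. The alternatives on transcript length were chosen after seeing the data.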

Additional observations from a re-analysis of the deposited data

How the results depend on the processing

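Over the 16 alternatives (15 for AIFM2, which the stricter filter removed), GPX4, AIFM2, SOD1, SOD2, LPCAT3 and ALOX5AP kept a positive log2 fold change. ACSL4, near 0, turned negative with genes of known length only (-0.0029), without a filter (-0.0047), with the replicate block (-0.010) and with total count scaling (-0.066), and ran from -0.11 to 0.15 when single libraries were left out. CAT turned negative with the length trend removed (-0.024) and with total count scaling (-0.058). GPX1 turned negative with the length trend removed (-0.0029) and ran from -0.075 to 0.29 when single libraries were left out.

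The count of members passing was 1 (SOD2) with DESeq2 and with the replicate block, and 0 to 1 when single libraries were left out, the 1 being SOD2 without ethacrynic acid replicate 3. Among all genes, 52 passed, beside 96 with the stricter filter, 614 with DESeq2, 114 with the length trend removed, 14 without a filter, 355 with the replicate block, and 4 to 148 when single libraries were left out. The lowest was without DMSO replicate 1 and the highest without ethacrynic acid replicate 3. The protective median (0.29) was 0.12 with the length trend removed, 0.20 with total count scaling and 0.11 to 0.35 when single libraries were left out. The sensitising median (0.19) was 0.14, 0.11 and 0.15 to 0.22. The cause was not tested.

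The labels do not say whether libraries of one replicate number were paired or handled together. The same-number correlations of deviations were 0.161, 0.0585 and 0.0868, and those between different numbers ran from -0.121 to 0.0261. Each library thus correlated best with its own number, and the source of this was not tested. With the block SOD2 had a log2 fold change of 0.99 (edgeR adjusted p = 0.0061). ALOX5 had too few counts for the main fit, and AIFM2 had 52 to 214 counts per library. ALOX5 did enter the fit without a filter and some of those with a library left out. Without ethacrynic acid replicate 1 its log2 fold change was -0.38, with a 95% interval of -2.48 to 1.72 (edgeR adjusted p = 0.924).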
